A study of Homo sapiens with 8 samples.

Results

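The glial and myelin genes are 8 genes known for their expression in myelinating cells, astrocytes or neurons: MBP, BCAN, LGI3, ASPA, SCRG1, CMTM5, S100B and NRXN3. They were picked from a list of glia-associated genes, and some of them were selected on their rise under PLX4032 in these same arrays, so their PLX4032 differences are given below as a description with no test. All 8 were measured, each by 1 probe set, among 18404 genes in all. The cells were COLO829, an established human melanoma line whose BRAF gene carries an activating mutation. All cells were infected with a pGIPZ vector, which carried a hairpin against MITF (shMITF, here knockdown cells) or a scrambled control hairpin (shSCR, here scrambled cells), and were selected with puromycin for 2 days. They then received PLX4032 at 1 µM, a drug also called vemurafenib that blocks the mutant BRAF kinase, or DMSO, for 24 h. Total RNA was read on 8 arrays in 4 groups of 2: knockdown cells with PLX4032, scrambled cells with PLX4032, knockdown cells with DMSO, and scrambled cells with DMSO. A single hairpin against MITF is named in the labels, so no difference on knockdown could be checked with another, and nothing in them says that the arrays A and B of a group came from separate cultures. The p-values therefore measure the spread between these arrays, which may be technical.

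Myelin is the wrapping of axons that oligodendrocytes build in the brain and Schwann cells in peripheral nerves. Schwann cells and melanocytes both descend from the neural crest, and both lineages use the transcription factor SOX10, whereas MITF directs the melanocyte fate. Among the 8 genes, MBP encodes myelin basic protein, which holds the layers of the myelin membrane together. ASPA encodes aspartoacylase, which frees acetate from N-acetylaspartate for lipid synthesis. BCAN encodes brevican, a lectican proteoglycan of the brain matrix. LGI3 encodes a secreted leucine-rich repeat protein, and NRXN3 a neurexin, a cell adhesion receptor of synapses. S100B encodes a calcium-binding protein that marks glia and melanocytic tumours. CMTM5 encodes a membrane protein with a MARVEL domain, and SCRG1 a small secreted protein first found to be induced in scrapie.

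The arrays read the cells as melanocytic, and the hairpin lowered its target. MITF read 10.07 and 10.08 in knockdown cells under PLX4032, against 10.88 and 10.80 in scrambled cells under PLX4032, and 9.57 and 9.47 in knockdown cells in DMSO, against 10.44 and 10.46 in scrambled cells in DMSO. The difference was -0.76 ± 0.080 under PLX4032 and -0.93 ± 0.080 in DMSO (limma adjusted p = 3.02e-05 and 8.28e-06). Of 6 measured melanocyte markers, 5 lay above the median gene (MITF, PMEL, TYR, TYRP1 and SOX10), and MLANA did not. By comparison, 1 of 8 oligodendrocyte markers (MYRF), 2 of 4 Schwann cell markers (PMP2 and CDH19), 0 of 6 astrocyte markers and 0 of 7 leukocyte markers lay above it. The median gene level was 6.80. Of defining genes, MAG read 4.43 to 5.28, MOBP 3.62 to 4.23, GFAP 5.24 to 5.79 and MOG 5.77 to 6.89, so MOG lay near the median gene. Other oligodendrocyte markers also lay near it, with CLDN11 at 6.60 to 6.88, OLIG1 at 6.19 to 6.63 and OLIG2 at 5.34 to 7.03. Levels are log2 intensities after RMA, and differences are in log2 units with the SE of a limma fit over all 8 arrays. No detection calls were available, and RMA compresses differences at low levels. With each array centred on its median, the calls over all genes shifted towards lower ones. The split for knockdown in DMSO was 1803 higher and 4507 lower after centring, against 2655 and 3459 on the values as deposited. For knockdown under PLX4032 it was 1876 and 3558 after centring, against 2480 and 2763.

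The 8 genes did not move as a unit. They fell into 4 patterns, which were grouped after their values were seen: MBP, BCAN and LGI3 were highest in scrambled cells under PLX4032, ASPA was high under PLX4032 with either hairpin, SCRG1, CMTM5 and S100B were highest with both perturbations, and NRXN3 was high with the MITF hairpin under either treatment.

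**Figure D1:**
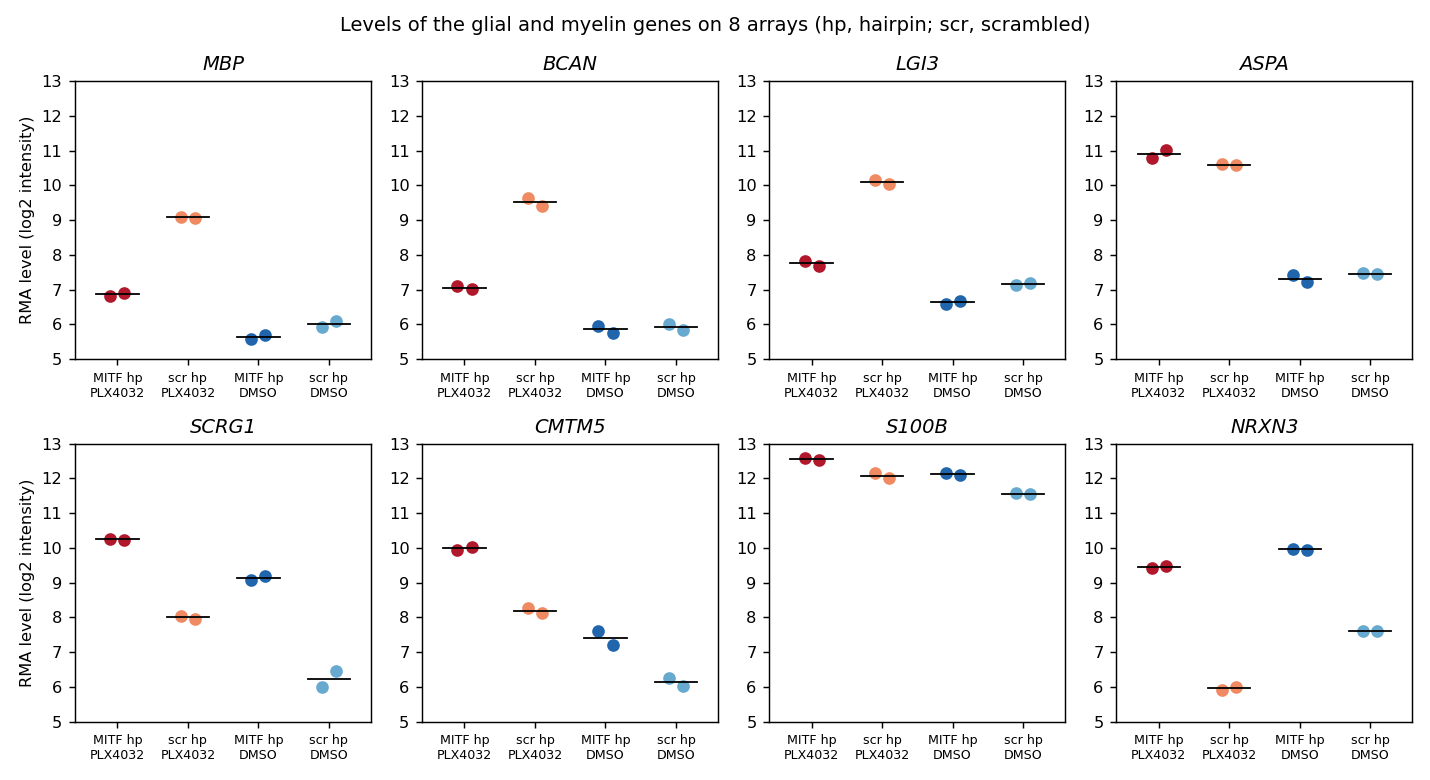
Level of each gene (RMA log2 intensity, vertical axis) in the 4 groups, with 1 point per array and a bar at the group mean (n = 2). MBP, BCAN and LGI3 peak in scrambled cells under PLX4032 (9.08, 9.53 and 10.09 on average), and NRXN3 is lowest there (5.96).

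The knockdown comparisons called most of the genes, in both directions. Under PLX4032, knockdown raised 5 of the 8 genes and lowered 3, beside 13.5% of all genes called higher and 15% called lower. In DMSO it raised 4 and lowered 2, beside 14.4% and 18.8% of all genes. The interaction, which asks whether the PLX4032 difference in knockdown cells departs from that in scrambled cells, was called positive for 1 gene and negative for 4, beside 6.97% and 4.85% of all genes. The median difference over the 8 genes was 0.39 for knockdown under PLX4032, 0.25 for knockdown in DMSO and -0.36 for the interaction, where the medians over all genes were 0.022, 0.020 and 0.0013. These comparisons share arrays with the PLX4032 difference on which part of the genes were chosen. That difference is also a term of the interaction. Choosing genes on a rise in scrambled cells pushes their interaction towards negative values, and choosing on a rise in knockdown cells pushes it towards positive ones. The calls and p-values of the chosen genes in these comparisons are therefore not independent of that choice. In bulk RNA, a change in the number of cells that hold a transcript and a change in its amount per cell cannot be told apart.

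MBP, the myelin basic protein gene, read 6.82 and 6.90 in knockdown cells under PLX4032, 9.08 and 9.07 in scrambled cells under PLX4032, 5.57 and 5.68 in knockdown cells in DMSO, and 5.92 and 6.11 in scrambled cells in DMSO. The scrambled PLX4032 arrays stood far above the other 6, and no groups overlapped. Under PLX4032 the gene was 4.64-fold lower in knockdown than in scrambled cells (log2 difference -2.21 ± 0.090, limma adjusted p = 2.08e-08). In DMSO the fall was small (-0.39 ± 0.090, adjusted p = 0.00707). That call was lost without knockdown DMSO array A (-0.33, adjusted p = 0.0675) or without scrambled DMSO array B (-0.30, adjusted p = 0.0634). PLX4032 minus DMSO was 1.24 ± 0.090 in knockdown cells and 3.06 ± 0.090 in scrambled cells, and the interaction was -1.83 ± 0.13 (adjusted p = 9.24e-06).

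BCAN read 7.10 and 7.01 in knockdown cells under PLX4032, 9.64 and 9.42 in scrambled cells under PLX4032, 5.96 and 5.75 in knockdown cells in DMSO, and 6.01 and 5.84 in scrambled cells in DMSO. The DMSO groups overlapped, while both PLX4032 groups lay above them and apart from each other. Brevican was the gene with the largest knockdown fall of the 8 under the inhibitor, 5.55-fold (-2.47 ± 0.11, adjusted p = 3.74e-08), and its difference in DMSO did not pass the test (-0.067 ± 0.11, adjusted p = 0.672). Between PLX4032 and DMSO the difference was 1.20 ± 0.11 in knockdown cells, a 2.3-fold difference, and 3.61 ± 0.11 in scrambled cells, a 12.2-fold difference. The interaction was -2.41 ± 0.15 (adjusted p = 5.81e-06).

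LGI3 read 7.82 and 7.69 in knockdown cells under PLX4032, 10.14 and 10.04 in scrambled cells under PLX4032, 6.59 and 6.68 in knockdown cells in DMSO, and 7.12 and 7.18 in scrambled cells in DMSO. No groups overlapped, and the order of the 4 groups was that of MBP. Knockdown lowered the gene 5.05-fold under PLX4032 (-2.34 ± 0.087, adjusted p = 1.26e-08) and 1.43-fold in DMSO (-0.52 ± 0.087, adjusted p = 0.000984). The PLX4032 arrays exceeded the DMSO arrays by 1.12 ± 0.087 in knockdown cells and 2.94 ± 0.087 in scrambled cells, with an interaction of -1.82 ± 0.12 (adjusted p = 7.25e-06). In all 3 genes of this pattern the PLX4032 arrays of knockdown cells still lay above the DMSO arrays of scrambled cells, by 0.85 ± 0.090 in MBP, 1.13 ± 0.11 in BCAN and 0.60 ± 0.087 in LGI3.

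The profiles of these 3 genes over the 8 arrays were close to one another, with Pearson's r of 0.997 between MBP and LGI3, 0.992 between MBP and BCAN and 0.989 between BCAN and LGI3. These correlations describe 4 groups of 2 arrays each, and part of the genes were chosen on a shared rise. Among the 2591 genes whose group means spanned at least 1 log2 unit, the 3 nearest profiles to MBP were LGI3, BCAN and CCDC171 (r = 0.991). Nearest to BCAN were INSYN1 (0.995), CPM (0.992) and MBP, and nearest to LGI3 were MBP, CYP7B1 (0.994) and FLACC1 (0.993). Of 6 melanocyte markers, 4 were lower on knockdown under either treatment, with 0 higher. MITF is among the 6 and is the target of the hairpin, so its fall was set by the design. Under PLX4032, 5 of 6 were higher in knockdown cells and 5 of 6 in scrambled cells. Their interaction was called positive for 1 and negative for 2, beside 6.97% and 4.85% of all genes, with a median of 0.060. For MBP it was -1.83, for BCAN -2.41 and for LGI3 -1.82. The mean level of the 6 markers per array ran from 9.91 to 9.93 in knockdown cells under PLX4032, 10.72 to 10.90 in scrambled cells under PLX4032, 8.81 to 8.85 in knockdown cells in DMSO and 9.77 to 9.82 in scrambled cells in DMSO. These means put the 4 groups in the same order as MBP and LGI3 did. The part of the melanocyte program in the differences of MBP, BCAN and LGI3 was not tested.

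The window around the start site is shown for MBP and BCAN, which moved together. It runs 5′ to 3′ along the gene from 250 bases before to 50 after a RefSeq transcript start (GRCh38.p14). The letters searched, on both strands, were the SOX elements ACAAAG and ACAATG, the E-boxes CATGTG (the core of the M-box to which MITF binds) and CACGTG, and the AP-1 site TGANTCA, none of which overlapped in the matches found. Matches are in capitals. MBP has an upstream window with 0 matches, which is not printed, and a downstream one at chr18:77017006-77017305 (minus strand). The BCAN window lies at chr1:156641867-156642166 (plus strand).
MBP downstream start: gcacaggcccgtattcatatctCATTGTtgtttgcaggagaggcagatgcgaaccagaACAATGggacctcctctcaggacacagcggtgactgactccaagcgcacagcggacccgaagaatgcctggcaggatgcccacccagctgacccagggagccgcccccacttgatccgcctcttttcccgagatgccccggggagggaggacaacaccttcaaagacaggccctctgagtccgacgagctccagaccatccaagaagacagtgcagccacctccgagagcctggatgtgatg
BCAN: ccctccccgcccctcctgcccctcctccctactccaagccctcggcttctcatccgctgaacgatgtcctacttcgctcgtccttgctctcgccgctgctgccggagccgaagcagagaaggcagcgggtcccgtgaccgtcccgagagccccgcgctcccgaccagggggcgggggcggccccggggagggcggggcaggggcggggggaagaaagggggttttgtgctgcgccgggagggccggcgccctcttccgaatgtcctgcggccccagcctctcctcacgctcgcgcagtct

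The downstream MBP window held ACAATG at 192 bases before the start, and its reverse complement CATTGT beginning 228 bases before the start. The BCAN window held 0 matches. ACAATG occurs in 10.8% of the 35116 promoter windows of the RefSeq table, ACAAAG in 16.1%, CATGTG in 11.1%, CACGTG in 7.26% and TGANTCA in 7.71%. Of the 8 genes, 6 had a window in that table, with 9 windows in all, and neither E-box nor the AP-1 letters occurred in any of the 9. These counts describe the letters in a short window only.

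Of 14 genes of lecticans and their partners in the brain matrix, knockdown raised 8 under PLX4032 and lowered 0, beside 13.5% and 15% of all genes. In DMSO it raised 10 and lowered 0, beside 14.4% and 18.8%. The medians were 0.66 under PLX4032 and 0.43 in DMSO. The lectican genes VCAN (versican, 3.74 ± 0.11) and ACAN (aggrecan, 2.18 ± 0.078) rose under PLX4032, as did the lectican ligand TNC (tenascin C, 3.06 ± 0.082) and the receptor phosphatase gene PTPRZ1 (3.38 ± 0.11), each with an adjusted p of at most 1.05e-08. VCAN read 11.64 and 11.77 in knockdown cells under PLX4032, against 7.84 and 8.09 in scrambled cells under PLX4032. In DMSO VCAN rose by 1.91 ± 0.11, PTPRZ1 by 2.19 ± 0.11, TNC by 1.93 ± 0.082 and the link protein gene HAPLN1 by 1.36 ± 0.15. PLX4032 itself raised 4 of the 14 and lowered 4 in scrambled cells, where 17.3% of all genes rose and 16.8% fell, and raised 5 and lowered 4 in knockdown cells, where 18.6% of all genes rose and 15.1% fell. ACAN rose in both (2.52 ± 0.078 in knockdown cells and 1.08 ± 0.078 in scrambled cells) and CSPG4 fell in both (-2.04 ± 0.086 and -1.30 ± 0.086). NCAN, which encodes the brain lectican neurocan, read between 4.87 and 5.38 on the 8 arrays and passed no test in these 4 comparisons. It was named after its values were seen.

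In the LGI family and its receptors, 6 genes, knockdown under PLX4032 raised 3 and lowered 1, beside 13.5% and 15% of all genes. In DMSO it raised 1 and lowered 2, beside 14.4% and 18.8%. LGI4, which Schwann cells secrete to promote myelination, rose by 1.22 ± 0.12 under PLX4032 and by 0.71 ± 0.12 in DMSO (adjusted p = 1.64e-05 and 0.00096), opposite in sign to LGI3. The receptor gene ADAM22 rose by 0.79 ± 0.10 under PLX4032, while in DMSO it read -0.36 ± 0.10, a fall (adjusted p = 0.0185) whose call ended without array B of either DMSO group. LGI4 read 6.57 and 6.79 in knockdown cells under PLX4032, against 5.32 and 5.59 in scrambled cells under PLX4032.

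**Figure D2:**
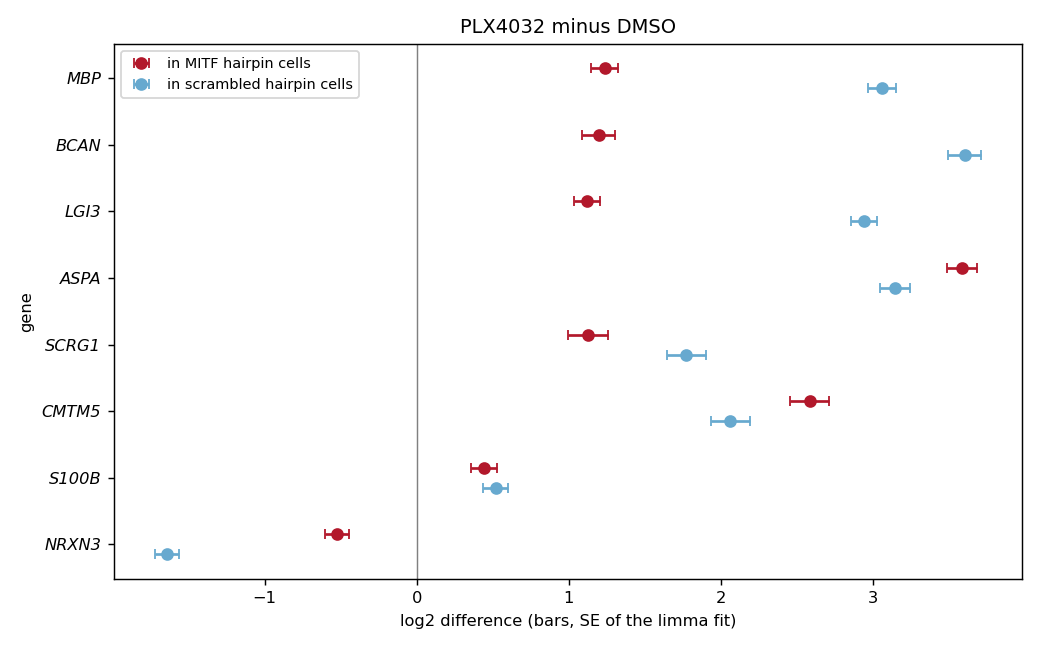
PLX4032 minus DMSO for each gene (horizontal axis, log2 difference with SE bars), in knockdown cells (upper point) and scrambled cells (lower point). MBP, BCAN and LGI3 lie between 1.12 and 1.24 in knockdown cells and between 2.94 and 3.61 in scrambled cells, and NRXN3 lies below 0 with either hairpin.

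ASPA, the aspartoacylase gene, read 10.78 and 11.01 in knockdown cells under PLX4032, 10.62 and 10.58 in scrambled cells under PLX4032, 7.41 and 7.21 in knockdown cells in DMSO, and 7.46 and 7.43 in scrambled cells in DMSO. The 4 PLX4032 arrays stood together above the 4 DMSO arrays. PLX4032 minus DMSO was 3.59 ± 0.10 in knockdown cells (12.0-fold) and 3.15 ± 0.10 in scrambled cells (8.86-fold), and the interaction did not pass the test (0.44 ± 0.14, adjusted p = 0.0737). Knockdown under PLX4032 read 0.30 ± 0.10 with an adjusted p of 0.0475. This call ended when arrays were centred on their median (0.23, adjusted p = 0.135) and in 7 of the 8 fits that left out an array, all but that without knockdown PLX4032 array A (0.18 to 0.41). In DMSO the knockdown difference was -0.14 ± 0.10 (adjusted p = 0.304). The ASPA value was positive where those of MBP, BCAN and LGI3 were negative, and the difference between genes was not tested.

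The nearest profiles to ASPA were PLXNB1 (r = 0.998), the purinergic receptor gene P2RX7 (0.997) and CRYL1 (0.996). Of 11 other genes of N-acetylaspartate and myelin lipid metabolism, PLX4032 raised 3 and lowered 1 in knockdown cells, beside 18.6% and 15.1% of all genes. In scrambled cells it raised 3 and lowered 2, beside 17.3% and 16.8%. The same 3 rose in each: SLC13A3, a dicarboxylate transporter that takes up N-acetylaspartate (0.76 ± 0.094 in knockdown cells and 0.54 ± 0.094 in scrambled cells), the peptidase gene NAALAD2 (0.53 ± 0.081 and 0.82 ± 0.081), and ARSA, the sulfatide-degrading enzyme (0.82 ± 0.086 and 0.74 ± 0.086). NAT8L, which encodes the enzyme that makes N-acetylaspartate, was called in neither PLX4032 comparison (-0.22 ± 0.12 in knockdown cells and -0.18 ± 0.12 in scrambled cells). It was named after its values were seen. ACSS2, which turns acetate into acetyl-CoA, fell by 1.13 ± 0.087 under PLX4032 in knockdown cells (adjusted p = 2.08e-06).

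SCRG1 read 10.27 and 10.24 in knockdown cells under PLX4032, 8.05 and 7.96 in scrambled cells under PLX4032, 9.07 and 9.19 in knockdown cells in DMSO, and 5.99 and 6.46 in scrambled cells in DMSO. No groups overlapped, and the arrays of scrambled DMSO cells differed most from each other. Knockdown raised it 4.77-fold under PLX4032 (2.25 ± 0.13, adjusted p = 2.98e-07) and 7.48-fold in DMSO (2.90 ± 0.13, adjusted p = 8.28e-08). PLX4032 minus DMSO was 1.13 ± 0.13 in knockdown cells and 1.78 ± 0.13 in scrambled cells. The interaction was -0.65 ± 0.18 (adjusted p = 0.0445), and this call ended after centring on the median (-0.64, adjusted p = 0.0527), after repeated quantile normalization (-0.60, adjusted p = 0.0711) and in 7 of the 8 fits that left out an array, all but that without scrambled DMSO array B (-0.88 to -0.41). With both perturbations, SCRG1 was 16.3-fold above scrambled DMSO cells (4.03 ± 0.13).

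CMTM5 read 9.95 and 10.02 in knockdown cells under PLX4032, 8.28 and 8.12 in scrambled cells under PLX4032, 7.60 and 7.21 in knockdown cells in DMSO, and 6.24 and 6.03 in scrambled cells in DMSO. The 4 groups formed 4 separate steps. Knockdown raised it 3.46-fold under PLX4032 (1.79 ± 0.13, adjusted p = 1.56e-06) and 2.41-fold in DMSO (1.27 ± 0.13, adjusted p = 2.77e-05). With PLX4032 the gene stood higher than in DMSO by 2.59 ± 0.13 in knockdown cells and 2.06 ± 0.13 in scrambled cells, an interaction of 0.52 ± 0.18 (adjusted p = 0.094) that did not pass the test. The interaction passed with an intensity trend in the variance (adjusted p = 0.0372) and without knockdown DMSO array A (0.72, adjusted p = 0.0272). Both perturbations together gave 14.4 times the level in scrambled DMSO cells (3.85 ± 0.13).

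S100B was bright on every array, with 12.60 and 12.53 in knockdown cells under PLX4032, 12.16 and 12.01 in scrambled cells under PLX4032, 12.15 and 12.09 in knockdown cells in DMSO, and 11.57 and 11.55 in scrambled cells in DMSO. The groups with 1 perturbation overlapped, and that with both lay above them. Knockdown raised it 1.4-fold under PLX4032 (0.48 ± 0.084, adjusted p = 0.00127) and 1.47-fold in DMSO (0.56 ± 0.084, adjusted p = 0.000474). PLX4032 minus DMSO was 0.44 ± 0.084 in knockdown cells and 0.52 ± 0.084 in scrambled cells, and the interaction was -0.076 ± 0.12 (adjusted p = 0.765). Differences between very bright probe sets can also be compressed on arrays, so the folds of S100B may be understated, which was not tested.

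Over the 8 arrays Pearson's r was 0.961 between SCRG1 and S100B, 0.955 between CMTM5 and S100B and 0.859 between SCRG1 and CMTM5. The nearest profiles were B3GALT2 (0.995), SHROOM4 (0.995) and TANC2 (0.994) for SCRG1, PCDHB18P (0.998), IFITM10 (0.996) and ATXN7L1 (0.995) for CMTM5, and TOM1L2, SHISA4 and TAPBPL (each 0.995) for S100B. The windows of SCRG1, at chr4:173399067-173399366 (minus strand), and of CMTM5, at chr14:23376796-23377095 (plus strand), are shown with the same marking, since these genes rose together on knockdown.
SCRG1: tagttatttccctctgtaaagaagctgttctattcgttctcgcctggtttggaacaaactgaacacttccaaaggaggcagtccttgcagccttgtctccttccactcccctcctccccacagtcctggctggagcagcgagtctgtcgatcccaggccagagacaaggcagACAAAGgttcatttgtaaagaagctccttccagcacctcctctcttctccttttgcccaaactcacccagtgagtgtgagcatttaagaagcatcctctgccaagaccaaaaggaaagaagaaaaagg
CMTM5: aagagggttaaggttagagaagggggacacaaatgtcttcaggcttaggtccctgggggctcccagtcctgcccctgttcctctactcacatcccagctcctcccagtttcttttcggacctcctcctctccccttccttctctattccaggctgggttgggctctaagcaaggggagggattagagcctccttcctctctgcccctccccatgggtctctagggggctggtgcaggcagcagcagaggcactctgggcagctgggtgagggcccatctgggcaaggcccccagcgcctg

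The SCRG1 window held ACAAAG at 78 bases before the start, and the CMTM5 window held 0 of the 5 searched elements. Of 7 other genes of the CMTM family and its MARVEL relatives, knockdown raised 1 and lowered 1 under PLX4032, beside 13.5% and 15% of all genes. In DMSO it raised 0 and lowered 1, beside 14.4% and 18.8%. CMTM7, a tumour suppressor candidate, fell under PLX4032 by 1.15 ± 0.086 in knockdown cells and by 0.64 ± 0.086 in scrambled cells (adjusted p = 1.63e-06 and 0.00017). Of 11 other genes of the S100 family and its receptor, knockdown raised 1 and lowered 0 under PLX4032, and raised 5 and lowered 0 in DMSO, beside the same shares of all genes. S100A4, linked to cell motility, rose by 0.70 ± 0.11 on knockdown in DMSO, and S100A16 fell under PLX4032 by 1.23 ± 0.12 in knockdown cells and by 1.73 ± 0.12 in scrambled cells, where S100B stood higher. After centring on the median the count for knockdown in DMSO was 3 raised and 1 lowered.

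NRXN3, the neurexin gene, read 9.42 and 9.47 in knockdown cells under PLX4032, 5.92 and 5.999 in scrambled cells under PLX4032, 9.98 and 9.95 in knockdown cells in DMSO, and 7.60 and 7.60 in scrambled cells in DMSO. The 4 knockdown arrays stood above the 4 scrambled ones, and PLX4032 arrays lay below DMSO arrays of the same hairpin. Knockdown raised NRXN3 11.2-fold under PLX4032 (3.49 ± 0.079, adjusted p = 1.01e-09), the largest knockdown difference of the 8 genes, and 5.15-fold in DMSO (2.37 ± 0.079, adjusted p = 1.61e-08). PLX4032 minus DMSO was -0.52 ± 0.079 in knockdown cells and -1.64 ± 0.079 in scrambled cells, and the interaction was 1.12 ± 0.11 (adjusted p = 8.21e-05). NRXN3 was the only one of the 8 genes to stand lower under PLX4032.

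The nearest profiles to NRXN3 were 3 matrix genes, TNC (r = 0.999), COL19A1 (0.998) and COL4A1 (0.998). Its correlation with LGI3 was -0.821 and with MBP -0.783. Of 12 other genes of neurexins and their ligands, knockdown raised 3 and lowered 1 under PLX4032, beside 13.5% and 15% of all genes. In DMSO it raised 4 and lowered 0, beside 14.4% and 18.8%, and centring left 3 raised. PLX4032 raised 3 and lowered 0 in knockdown cells, beside 18.6% and 15.1% of all genes. It raised 5 and lowered 0 in scrambled cells, beside 17.3% and 16.8%, where NRXN3 itself stood lower. The postsynaptic ligand gene LRRTM4 was higher under PLX4032 by 2.65 ± 0.14 in knockdown cells and by 1.74 ± 0.14 in scrambled cells, and the neuroligin gene NLGN1 by 1.26 ± 0.084 and 1.04 ± 0.084, each with an adjusted p of at most 4.88e-06. NLGN3 rose on knockdown by 0.77 ± 0.10 under PLX4032 and by 0.54 ± 0.10 in DMSO.

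**Figure D3:**
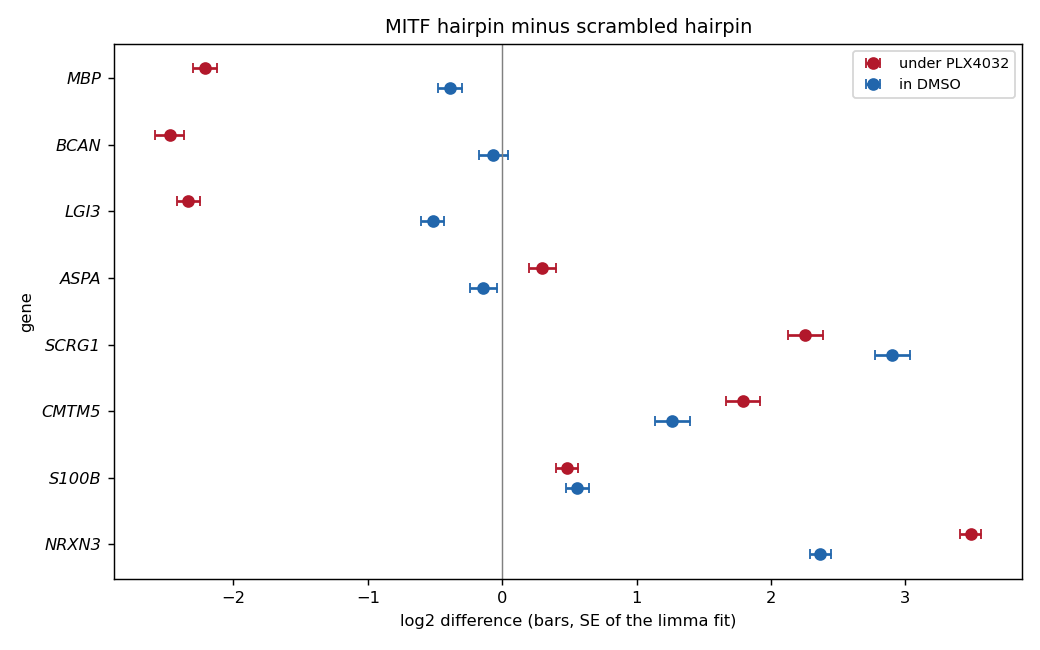
MITF hairpin minus scrambled hairpin for each gene (horizontal axis, log2 difference with SE bars), under PLX4032 (upper point) and in DMSO (lower point). MBP, BCAN and LGI3 lie at -2.47 to -2.21 under PLX4032, and SCRG1, CMTM5, S100B and NRXN3 lie above 0 under either treatment.

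Of 16 other myelin sheath genes, PLX4032 raised 5 and lowered 3 in knockdown cells, beside 18.6% and 15.1% of all genes. It raised 6 and lowered 2 in scrambled cells, beside 17.3% and 16.8%. Knockdown raised 3 (18.8%) and lowered 1 (6.25%) under PLX4032, beside 13.5% and 15% of all genes. In DMSO it raised 3 (18.8%) and lowered 4 (25%), beside 14.4% and 18.8%. With centred arrays the DMSO count was 1 raised and 4 lowered. PMP2, the lipid-binding P2 protein of peripheral myelin, rose in all 4 comparisons, by 0.67 ± 0.085 on knockdown under PLX4032, 1.02 ± 0.085 on knockdown in DMSO, 0.71 ± 0.085 under PLX4032 in knockdown cells and 1.06 ± 0.085 under PLX4032 in scrambled cells. That pattern is that of SCRG1, CMTM5 and S100B in sign. The tetraspanin gene CD9 rose on knockdown under PLX4032 (1.34 ± 0.097), and the connexin gene GJB1 fell under PLX4032 in both kinds of cells (-0.85 ± 0.092 in knockdown and -1.39 ± 0.092 in scrambled cells). GPM6B, which encodes a membrane glycoprotein of neurons and glia, was lower on knockdown under either treatment (-0.59 ± 0.092 under PLX4032 and -0.71 ± 0.092 in DMSO) and higher under PLX4032 with either hairpin (0.82 ± 0.092 and 0.70 ± 0.092), as were MBP and LGI3 in sign.

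Of 19 glial transcription factors, knockdown raised 5 and lowered 3 under PLX4032, beside 13.5% and 15% of all genes. In DMSO it raised 10 and lowered 3, beside 14.4% and 18.8%. SOX2 rose by 1.49 ± 0.11 under PLX4032 and by 1.28 ± 0.11 in DMSO, and the neural crest factor FOXD3 rose by 2.15 ± 0.11 under PLX4032 (adjusted p = 1.48e-07). PLX4032 raised 5 and lowered 6 in knockdown cells, beside 18.6% and 15.1% of all genes. It raised 5 and lowered 5 in scrambled cells, beside 17.3% and 16.8%. OLIG2, which drives oligodendrocyte fate, was lower under PLX4032 (-1.63 ± 0.12 in knockdown cells and -1.12 ± 0.12 in scrambled cells). PAX3, a factor of the neural crest, fell on knockdown by 1.03 ± 0.089 under PLX4032 and by 0.63 ± 0.089 in DMSO, and rose under PLX4032 by 1.56 ± 0.089 in knockdown cells and by 1.95 ± 0.089 in scrambled cells, and its interaction did not pass the test (-0.40 ± 0.13, adjusted p = 0.0679). SOX10, which activates MBP in Schwann cells and oligodendrocytes, read 11.05 and 11.03 in knockdown cells under PLX4032, 11.06 and 10.80 in scrambled cells under PLX4032, 10.55 and 10.51 in knockdown cells in DMSO, and 10.44 and 10.36 in scrambled cells in DMSO. It was named after its values were seen.

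Of 12 Schwann cell and precursor markers, knockdown raised 6 and lowered 2 under PLX4032, beside 13.5% and 15% of all genes. In DMSO it raised 6 and lowered 3, beside 14.4% and 18.8%, and centring left 4 and 3. NGFR, the low-affinity neurotrophin receptor of the neural crest, rose by 3.12 ± 0.077 under PLX4032 and by 1.51 ± 0.077 in DMSO. CDH19, a cadherin of Schwann cell precursors, rose by 3.07 ± 0.089 under PLX4032 and by 1.39 ± 0.089 in DMSO, and it fell by 1.76 ± 0.089 under PLX4032 in scrambled cells, where NRXN3 also stood lower. FABP7, the brain fatty acid binding protein, fell on knockdown by 1.98 ± 0.15 under PLX4032 and by 0.88 ± 0.15 in DMSO. The mean level of the 4 Schwann cell markers measured ran from 7.32 to 7.37 in knockdown cells under PLX4032, 6.29 to 6.33 in scrambled cells under PLX4032, 7.14 to 7.15 in knockdown cells in DMSO and 6.40 to 6.51 in scrambled cells in DMSO. Most of the gap under PLX4032 came from CDH19, which averaged 10.37 in knockdown and 7.31 in scrambled cells. PMP2 averaged 9.75 and 9.08, PRX 5.66 and 5.54, and SCN7A 3.59 and 3.31. Of these 4 markers, knockdown raised 3 and lowered 0 under PLX4032, beside 13.5% and 15% of all genes. In DMSO it raised 2 and lowered 0, beside 14.4% and 18.8%. PLX4032 raised 1 (PMP2) and lowered 1 (CDH19) in scrambled cells, beside 17.3% and 16.8% of all genes. In knockdown cells it raised 1 and lowered 0, beside 18.6% and 15.1%. The part of a Schwann cell program in the rises of SCRG1, CMTM5, S100B and NRXN3 was not tested.

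**Figure D4:**
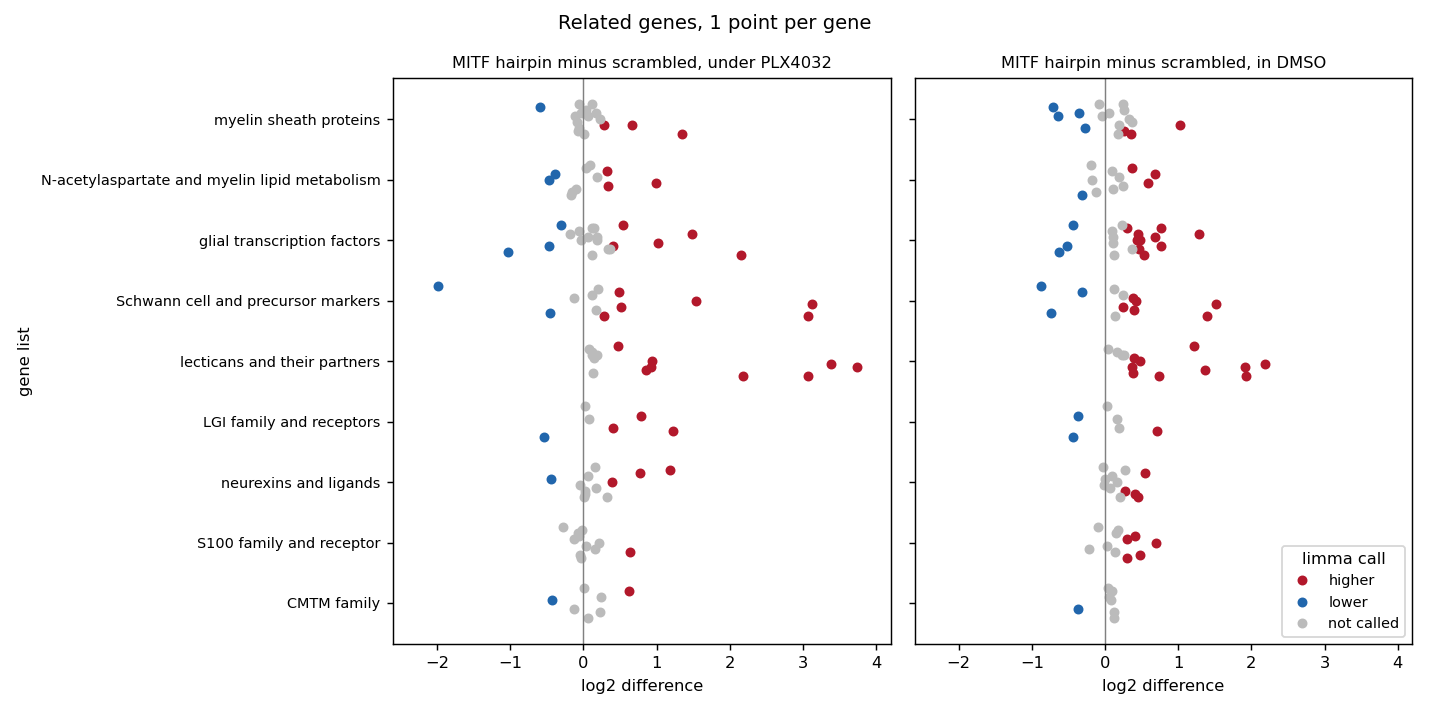
MITF hairpin minus scrambled hairpin (horizontal axis, log2 difference) for 108 related genes in 9 lists, 1 point per gene and list, under PLX4032 (left) and in DMSO (right), coloured by the limma call. In the list of lecticans and their partners 8 of 14 are higher and 0 lower under PLX4032.

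Over all 9 lists together, 108 of 117 related genes were measured. Knockdown raised 33 (30.6%) and lowered 11 (10.2%) under PLX4032, beside 13.5% and 15% of all genes, and raised 42 (38.9%) and lowered 14 (13%) in DMSO, beside 14.4% and 18.8%. With centred arrays these counts were 30 and 12 under PLX4032 and 32 and 17 in DMSO. PLX4032 raised 30 (27.8%) and lowered 21 (19.4%) in knockdown cells, beside 18.6% and 15.1% of all genes, and raised 29 (26.9%) and lowered 18 (16.7%) in scrambled cells, beside 17.3% and 16.8%. The interaction was positive for 18 (16.7%) and negative for 8 (7.41%), beside 6.97% and 4.85% of all genes.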

How the data were processed

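RNA from 8 samples was read on 8 arrays. The values deposited by the authors are log2 intensities per probe set. RMA is listed without a version in the submitters' processing notes, and the genome build was not used here. A platform annotation of 2016 gave a single gene symbol to 19158 of 32321 probe sets. A gene with several probe sets was represented by that with the highest mean, which left 18404 genes. Differences were fitted with lmFit and eBayes (limma 3.58.1, R 4.3.3) on the 4 group means, leaving 4 residual and 6.73 prior degrees of freedom. The two-sided p-values were adjusted by Benjamini-Hochberg over all 18404 genes and called under 0.05, and the script was tested on simulated data. The table held 0 columns of other samples.

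The members, the 9 lists of related genes and the alternatives were chosen with earlier results of these data known. Per list and comparison, up to 4 called genes with the largest difference and no overlap between groups were eligible to be named, and the text gives part of them. For each member the 3 genes with the highest Pearson correlation were named. Some listed genes are not reported here. Promoter windows are from RefSeq (GRCh38.p14). Alternatives were a replicate block, the mean of probe sets, leaving out the dimmest 40% of genes, repeated quantile normalization, centring on the median, an intensity trend, and leaving out each array. With 2 arrays per group, the number of arrays limits the precision.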

Additional observations from a re-analysis of the deposited data

Results flagged for a closer look

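These values are interactions, the PLX4032 difference in knockdown cells minus that in scrambled cells, that passed limma's test at an adjusted p under 0.05. Among the 8 genes, the PLX4032 difference departed between hairpins for BCAN (-2.41), MBP (-1.83), LGI3 (-1.82), SCRG1 (-0.65) and NRXN3 (1.12). The SCRG1 call ended after centring on the median, after repeated quantile normalization and in most of the fits that left out an array. For NRXN3 the positive sign stands for a smaller PLX4032 decrease in knockdown cells, while for the other 4 the negative sign stands for a smaller PLX4032 increase. Part of the 8 genes were chosen on their PLX4032 difference, which is a term of the interaction, so their calls are not independent of that choice.

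Among lecticans and partners, the interaction was 1.83 for VCAN, 1.44 for ACAN, 1.19 for PTPRZ1 and 1.13 for TNC. In that list of 14 genes it was called positive for 6 and negative for 1 (CSPG4, -0.74), with a median of -0.011. VCAN stood higher under PLX4032 in knockdown cells (0.79) and lower in scrambled cells (-1.05). Among Schwann cell markers it was 1.68 for CDH19, 1.61 for NGFR, 1.11 for ITGB8 and -1.10 for FABP7. Among transcription factors it was 1.62 for FOXD3, 0.91 for POU3F2, -0.65 for TCF7L2 and -0.64 for MYRF, whose call ended without knockdown DMSO array A or scrambled PLX4032 array A. Among myelin and lipid genes it was 0.99 for CD9, 0.53 for GJB1, -1.07 for ACSS2 and 0.41 for UGT8. In the remaining lists it was 1.15 for ADAM22, 0.91 for LRRTM4, -0.52 for S100A6, 0.52 for MAL2 and -0.51 for CMTM7. The calls of GJB1, UGT8, LRRTM4, S100A6, MAL2 and CMTM7 each ended in at least 3 of the fits that left out 1 array.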

How the results depend on the processing

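No called value of the 8 genes, MITF or the related genes eligible to be named changed sign under the alternatives run; the other related genes were followed as counts only. The count of the 8 genes with a positive interaction was 2 without the dimmest 40% of genes and 3 with an intensity trend, against 1 in the reported fit, and it ran from 1 to 2 over the fits that left out an array. ASPA was the gene added in the first case, and ASPA and CMTM5 in the second. The count lowered by knockdown in DMSO ran from 1 to 2 over those fits. The median difference of the 8 genes between both perturbations and scrambled DMSO cells was 1.38 after centring on the median, against 1.49. Centring moved the median of all genes in that comparison to -0.030, against 0.083. Related genes with a negative interaction numbered 16 without the dimmest 40% of genes, 16 after repeated quantile normalization and 14 with a trend, against 8, and ran from 4 to 10 over the fits that left out an array. Same-lettered arrays were not shown to be pairs, since their deviations from the group means correlated between -0.094 and 0.329. With the replicate block, the knockdown difference of ASPA under PLX4032 lost its call (adjusted p = 0.0568), and all genes called for knockdown in DMSO numbered 6146, against 6114. Fits with 1 array in a group assume that it varies like the other groups. Probe sets give relative levels only, and signal over background is unknown.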

Other observations

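Neuronal markers were read as a set of 10, of which 3 (SYT1, NEFL and GAD1) lay above the median gene. Knockdown raised 2 and lowered 1 under PLX4032, and raised 2 and lowered 2 in DMSO, while PLX4032 raised 2 and lowered 2 in knockdown cells and raised 2 and lowered 3 in scrambled cells. The mean level of the 10 genes per array ran from 5.82 to 5.90 in knockdown cells under PLX4032, 5.55 to 5.58 in scrambled cells under PLX4032, 5.73 to 5.77 in knockdown cells in DMSO and 5.68 to 5.71 in scrambled cells in DMSO. Of 7 leukocyte markers, knockdown raised 1 and lowered 0 under each treatment, and PLX4032 changed 0 with either hairpin. Of 6 fibroblast markers, knockdown raised 1 and lowered 0 under PLX4032, and raised 1 and lowered 1 in DMSO, while PLX4032 raised 2 and lowered 1 with either hairpin, and 1 of the 6 (LUM) lay above the median gene. Of 8 oligodendrocyte markers, knockdown changed 0 under PLX4032, and raised 3 and lowered 0 in DMSO. PLX4032 raised 0 and lowered 2 of them in knockdown cells, and raised 2 and lowered 1 in scrambled cells. Of 6 astrocyte markers, knockdown changed 0 under PLX4032, and raised 1 and lowered 0 in DMSO. PLX4032 raised 0 and lowered 1 of these in knockdown cells, and raised 1 and lowered 0 in scrambled cells. For the knockdown and PLX4032 comparisons, 13.5% to 18.6% of all genes were called higher and 15% to 18.8% lower. Between both perturbations and scrambled DMSO cells, 4 fibroblast markers were higher and 1 lower, and 6 neuronal markers were higher and 1 lower. There, 1 leukocyte marker was higher and 0 lower, 2 oligodendrocyte markers were higher and 1 lower, and 2 astrocyte markers were higher and 0 lower. That comparison called 48.6% of all genes, with 4979 of 18404 higher and 3966 lower.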
